A study of Homo sapiens with 12 samples.

Results

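The miR-23/27/24 family is made from 2 paralogous clusters in the human genome, and its mature forms were followed here in RNA from exosomes, small vesicles that cells release. Members were chosen by name alone, as every listed mature form of miR-23a, miR-23b, miR-24, miR-27a or miR-27b on either arm of its hairpin, and 6 of the 153 listed miRNAs qualified. These were hsa-miR-27a-3p, hsa-miR-27b-3p (named miR-27a-3p and miR-27b-3p from here on, as for the others), miR-23a-3p, miR-23b-3p, miR-24-3p and miR-27a-5p, and each was listed for both cell populations.

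The exosomes came from MDA-MB-231, an established human breast adenocarcinoma line, in 4 groups of 3 replicates. The groups were CSC-like cells (for cancer stem cell-like), obtained by sorting and treated with 56 µM cisplatin for 48 h, untreated CSC-like cells, parental cells treated with 56 µM cisplatin for 48 h, and untreated parental cells. Cisplatin, a platinum compound used in chemotherapy, forms crosslinks in DNA. All groups grew in serum depleted of exosomes. The property by which the CSC-like cells were sorted is not given in the sources used here, nor whether replicates were separate cultures, so a p-value here covers sample-to-sample spread alone, possibly of technical origin.

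Depth was low. Listed miRNA counts per library were 429, 1877 and 1575 in cisplatin-treated CSC-like, 1526, 2172 and 2522 in untreated CSC-like, 6622, 3552 and 3924 in cisplatin-treated parental, and 3527, 2648 and 4005 in untreated parental exosomes. Where a miRNA had 0 counts, its share could still have been as high as 0.699% in the shallowest library or 0.0453% in the deepest (3 counts of the total). A pair of abundant miRNAs, miR-21-5p and miR-100-5p, held 42.8% to 57.8% of the counts of each library. Replicates 2 and 3 of cisplatin-treated CSC-like exosomes did not differ detectably beyond sampling noise in a chi-square test over miRNAs (1.18 per degree of freedom, p = 0.212). At this depth that does not show that they are the same sample. They were nevertheless counted as 1 sample, which leaves n = 2 in that group. In the other 11 pairs of replicates the chi-square per degree of freedom ran from 1.48 to 51.2, so libraries of 1 group mostly differed by more than counting error. The lowest value belonged to cisplatin-treated parental replicates 2 and 3 (chi-square p = 0.0123), which were kept as separate samples. The other pairs of that group were at 16.1 and 16.4. Markers of other sources were scarce. Blood and serum miRNAs summed to at most 0.255% of any library, epithelial miR-200 family members to at most 0.373%, and endothelial miR-126 to at most 0.466%. Of the blood and serum miRNAs, miR-486-5p had 18 counts in parental and 3 in CSC-like exosomes. miR-122-5p had 14 in parental and miR-451a 2 in CSC-like exosomes, and miR-223-3p was not among the rows analysed here. For scale, the member miR-23b-3p reached at most 0.230% of a library. Counts were taken from vesicles in bulk, where fewer vesicles that carry a miRNA and fewer copies in each vesicle cannot be told apart.

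A miRNA guides the Argonaute complex to messenger RNAs that pair with its seed, the bases near its 5′ end, and lowers their output. Each miR-23/27/24 hairpin triplet lies within 1 primary transcript, which Drosha and Dicer cut into separate mature miRNAs. miR-27a is widely described as growth-promoting in breast cancer cell lines, where it represses the transcriptional repressor ZBTB10. miR-27b represses PPARG, a regulator of fat cell differentiation, miR-23a and miR-23b, which MYC holds down, repress glutaminase, and miR-24 represses the DNA damage histone H2AX. The family is also known for roles in blood vessel growth.

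The clusters lie at different loci (GRCh38, GENCODE v29 annotation). MIR23A, MIR27A and MIR24-2 span 373 bases of chromosome 19 on its minus strand, positions 13836287 to 13836659, within an exon of the noncoding antisense gene AC020916.1. MIR23B, MIR27B and MIR24-1 span 881 bases of chromosome 9 on its plus strand, positions 95085208 to 95086088, in introns of C9orf3, with MIR24-1 overlapping one of its exons. miR-24-3p has the same sequence at both loci, so its counts cannot be assigned to either.

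The mature sequences are shown because the paralogs differ so little that the count of each depends on single bases. They are taken from RefSeq (GRCh38.p14), run 5′ to 3′, and have the seed (bases 2 to 8) in capitals. All 6 members matched, and each was identical to the sequence deposited with the counts. The first pair shares the miR-27 seed.
miR-27a-3p: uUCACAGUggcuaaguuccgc
miR-27b-3p: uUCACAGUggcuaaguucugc

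The second pair shares the miR-23 seed.
miR-23a-3p: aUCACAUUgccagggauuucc
miR-23b-3p: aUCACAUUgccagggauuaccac

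The remaining members have seeds of their own.
miR-24-3p: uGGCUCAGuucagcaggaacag
miR-27a-5p: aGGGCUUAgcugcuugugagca

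Counted from 1 at the 5′ end, miR-27a-3p and miR-27b-3p differ by C19U alone over 21 bases. miR-23a-3p and miR-23b-3p differ by U19A over the 21 bases they share, and miR-23b-3p is longer, with 23 bases. The miR-23 and miR-27 seeds differ from each other by U7G, and the full miR-23a-3p and miR-27a-3p sequences differ at 10 of 21 positions. Both paralog differences lie outside the seed, near the 3′ end. How many mismatches or trimmed ends the authors' counting allowed is not given in the sources used here, so a read could have been counted for the wrong paralog, and its share was not tested. In RefSeq the miR-27 seed is also carried by miR-9985 and the miR-23 seed by miR-23c, neither of which was among the rows analysed here.

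The hairpins of the miR-27 paralogs show how similar arms sit in different surroundings, with the 3p arm in capitals at bases 51 to 71 of MIR27A and 61 to 81 of MIR27B.
MIR27A: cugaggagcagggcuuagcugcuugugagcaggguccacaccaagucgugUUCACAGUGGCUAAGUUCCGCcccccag
MIR27B: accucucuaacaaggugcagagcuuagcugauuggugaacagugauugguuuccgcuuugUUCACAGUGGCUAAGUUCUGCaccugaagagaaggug

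Together the 6 members held 279 of 10101 listed counts (2.76%) in CSC-like exosomes and 491 of 24278 (2.02%) in parental exosomes. Levels below are shares of each library's listed counts, not divided by length, for mature forms of 21 to 23 bases. miR-27b-3p was the most abundant member, ranked 13 of 114 miRNAs in CSC-like and 14 of 137 in parental exosomes, and it held 38.7% of the member counts in CSC-like and 52.7% in parental exosomes. In CSC-like exosomes miR-27a-3p ranked 21, miR-23a-3p 24, miR-24-3p 26, miR-23b-3p 55 and miR-27a-5p 85. In parental exosomes the same order held, with miR-27a-3p at 31, miR-23a-3p at 36, miR-24-3p at 43, miR-23b-3p at 62 and miR-27a-5p at 113. miR-27b-3p led the members in 10 of 12 libraries. The exceptions were cisplatin-treated CSC-like replicate 1, with 7 member counts in all, and untreated CSC-like replicate 3, in which miR-27a-3p had 28 counts and miR-27b-3p 27.

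**Figure D1:**
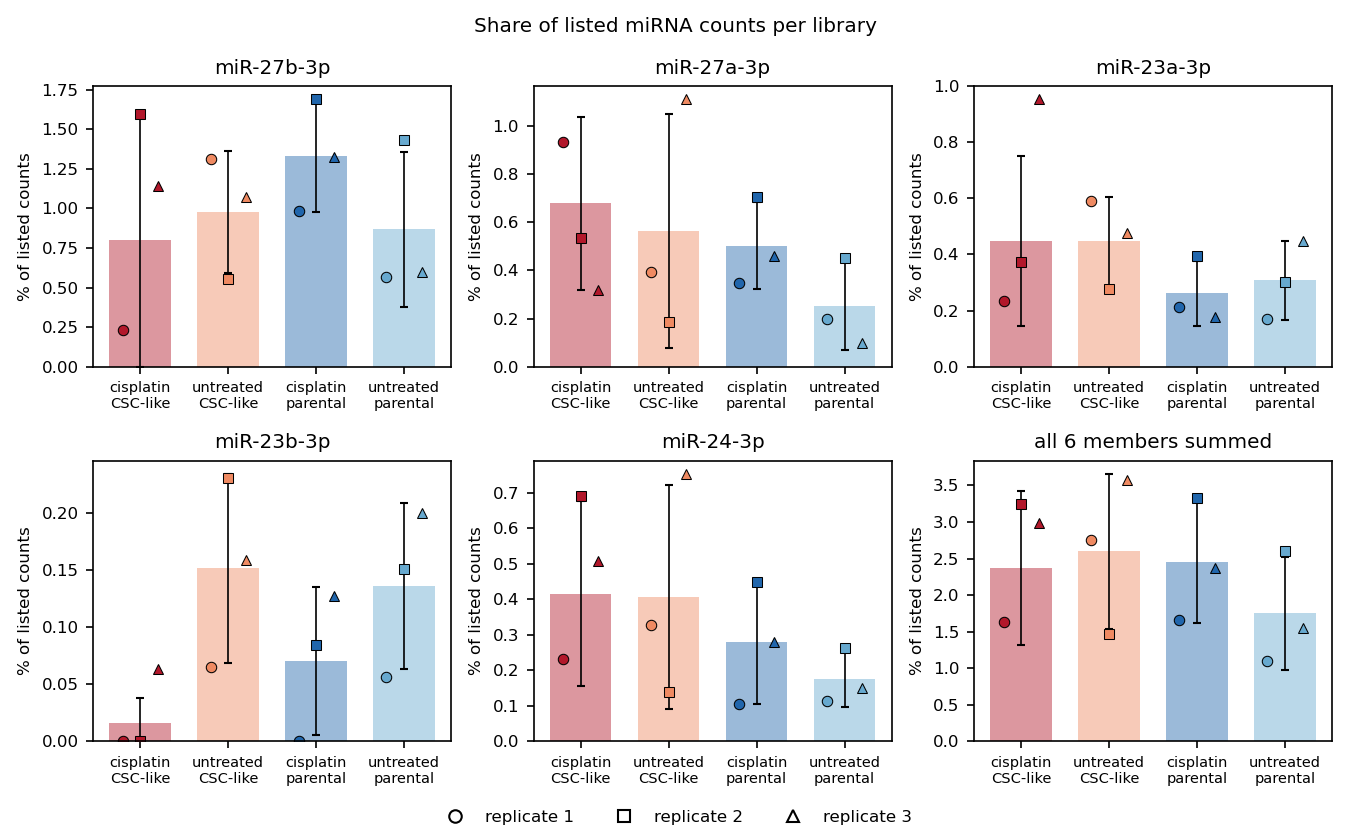
Share of listed miRNA counts (percent, y axis) held by each 3p member and by all 6 members, per library (points, shaped by replicate), in cisplatin-treated and untreated CSC-like and cisplatin-treated and untreated parental exosomes. Bars are group means and error bars 1 SD (n = 2 in cisplatin-treated CSC-like, where replicates 2 and 3 count as 1 sample, and n = 3 elsewhere; lower error bars stop at 0). Treated and untreated ranges overlap in both populations except for miR-23b-3p in CSC-like exosomes, whose cisplatin-treated CSC-like libraries hold at most 1 count.

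The miR-27 pair carried most of the family's counts. miR-27a-3p, the chromosome 19 form, had 4, 10 and 5 counts in cisplatin-treated CSC-like exosomes, which are 0.932%, 0.533% and 0.317% of the libraries, against 6, 4 and 28 counts, or 0.393%, 0.184% and 1.11%, in untreated CSC-like exosomes. In parental exosomes it had 23, 25 and 18 counts, or 0.347%, 0.704% and 0.459%, with cisplatin, against 7, 12 and 4 counts, or 0.198%, 0.453% and 0.0999%, without. The highest share belonged to untreated CSC-like replicate 3 and the lowest to untreated parental replicate 3, and the ranges of treated and untreated exosomes overlapped in both populations. Group means were 0.679% ± 0.359 in cisplatin-treated CSC-like (SD, n = 2), 0.563% ± 0.486 in untreated CSC-like, 0.503% ± 0.182 in cisplatin-treated parental and 0.251% ± 0.182 in untreated parental exosomes (SD, n = 3 each).

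miR-27b-3p, the chromosome 9 form, had 1, 30 and 18 counts in cisplatin-treated CSC-like exosomes, or 0.233%, 1.60% and 1.14%, against 20, 12 and 27 counts, or 1.31%, 0.552% and 1.07%, in untreated CSC-like exosomes. In parental exosomes it had 65, 60 and 52 counts, or 0.982%, 1.69% and 1.33%, with cisplatin, against 20, 38 and 24 counts, or 0.567%, 1.44% and 0.599%, without. Untreated parental replicate 2 lay within the treated parental range, so these groups overlapped too. Its group means were 0.802% ± 0.804 (SD, n = 2) in cisplatin-treated CSC-like, 0.978% ± 0.387 in untreated CSC-like, 1.33% ± 0.354 in cisplatin-treated parental and 0.867% ± 0.492 in untreated parental exosomes (SD, n = 3 each).

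miR-23a-3p, on chromosome 19 with miR-27a, had 1, 7 and 15 counts in cisplatin-treated CSC-like exosomes and 9, 6 and 12 in untreated CSC-like exosomes, group means of 0.448% ± 0.304 (SD, n = 2) and 0.447% ± 0.159 (SD, n = 3). It had 14, 14 and 7 counts in cisplatin-treated and 6, 8 and 18 in untreated parental exosomes, 0.261% ± 0.116 and 0.307% ± 0.140 (SD, n = 3 each). All its group ranges overlapped. miR-24-3p, summed over both loci, had 1, 13 and 8 counts in cisplatin-treated and 5, 3 and 19 in untreated CSC-like exosomes, 0.417% ± 0.260 (SD, n = 2) and 0.406% ± 0.315 (SD, n = 3). In parental exosomes it had 7, 16 and 11 counts with cisplatin and 4, 7 and 6 without, 0.279% ± 0.172 and 0.176% ± 0.0788 (SD, n = 3 each). Untreated CSC-like replicate 3 held the highest share of both miR-24-3p (0.753%) and miR-27a-3p.

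miR-23b-3p, on chromosome 9 with miR-27b, was the scarcest 3p member, with 33 counts in all. It had 0, 0 and 1 counts in cisplatin-treated CSC-like exosomes against 1, 5 and 4 in untreated CSC-like exosomes, and 0, 3 and 5 counts in cisplatin-treated against 2, 4 and 8 in untreated parental exosomes. The CSC-like groups did not overlap, although by a narrow margin: the highest treated share was 0.0635% and the lowest untreated share 0.0655%, each from 1 count. In CSC-like exosomes 13.8% of the miRNAs tested did not overlap between these groups. That share counts treated replicates 2 and 3 as 1 sample and leaves out miR-23b-3p, whose ranges here are over separate libraries. It is therefore only a rough guide. The untreated shares of 0.0655% and 0.159% lie below what a count of 0 allows in each treated library (0.699%, 0.160% and 0.190%), and a difference from these was not detectable at this depth. The remaining untreated share of 0.230%, in replicate 2, exceeds that limit in treated replicate 2 but not in treated replicate 1. Treated replicate 3 had 1 count, so the limit for a count of 0 does not apply to it. Its exact binomial interval reached 0.353%, so a share of 0.230% lies within counting error there. miR-23b-3p had too few counts to be kept for testing. With no filter on low counts its log2 fold change in CSC-like exosomes was -2.34 (SE 1.44, adjusted p = 0.995, edgeR). The authors' deposited table gives it a fold of -6.18 (lower levels after cisplatin carry a minus sign there) with p = 0.0246, which became 0.339 after Benjamini-Hochberg adjustment over the 114 miRNAs of that table.

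The passenger arm of MIR27A was detected at the edge of the depth. miR-27a-5p had 7 counts against 146 for miR-27a-3p, or 4.58% of the MIR27A reads (95% exact binomial interval 1.86% to 9.20%, counting error only), and it was present in 5 of 12 libraries. The forms miR-23a-5p, miR-23b-5p, miR-24-1-5p, miR-24-2-5p and miR-27b-5p were not among the rows analysed here. The 3p arms held 275 of the 279 member counts in CSC-like and 488 of the 491 in parental exosomes.

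The balance between the clusters was read through their paralogs. miR-27a-3p made up 146 of the 513 miR-27 3p counts over all libraries, 28.5% (95% exact binomial interval 24.6% to 32.6%), and miR-27b-3p exceeded it in 10 of 12 libraries. The miR-23 pair leaned the other way. miR-23a-3p made up 117 of 150 counts, 78.0% (interval 70.5% to 84.3%), and exceeded miR-23b-3p in 12 of 12 libraries. The chromosome 19 share was higher in the miR-23 pair than in the miR-27 pair in each of the 12 libraries. In 10 of 12 libraries the pairs gave opposite orders of the clusters, and in cisplatin-treated CSC-like replicate 1 and untreated CSC-like replicate 3 both favoured chromosome 19.

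**Figure D2:**
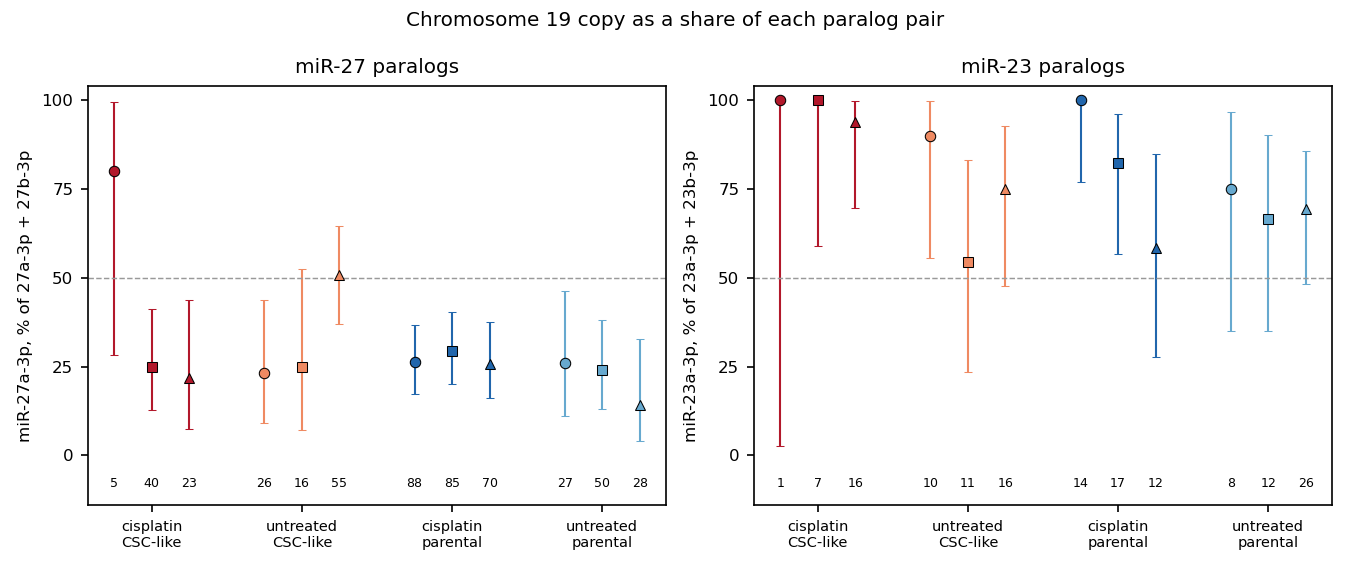
Chromosome 19 form as a percent of each paralog pair (y axis), per library, for miR-27 (left) and miR-23 (right). Points are libraries, bars exact 95% binomial intervals for counting error, numbers along the foot the counts of the pair, and the dashed line marks equal counts of the paralogs. miR-27a-3p lies below the line in 10 of 12 libraries and miR-23a-3p above it in 12 of 12.

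By library, the miR-27a-3p share of the miR-27 pair was 80.0%, 25% and 21.7% in cisplatin-treated CSC-like, 23.1%, 25% and 50.9% in untreated CSC-like, 26.1%, 29.4% and 25.7% in cisplatin-treated parental and 25.9%, 24% and 14.3% in untreated parental exosomes. All but 3 of these libraries lay between 21.7% and 29.4%. The high value of cisplatin-treated CSC-like replicate 1 was 4 of 5 counts (interval 28.4% to 99.5%), and that of untreated CSC-like replicate 3 was 28 of 55 counts (37.1% to 64.6%).

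None of the 4 comparisons of this share gave groups that did not overlap, and the smallest p that an exact two-sided permutation test can give with these sample numbers is 0.1. With cisplatin the mean share was 51.7% ± 40.0 (SD, n = 2) in treated and 33.0% ± 15.5 (SD, n = 3) in untreated CSC-like exosomes, a difference of 18.7 percentage points (exact permutation p = 0.6). That difference rests on the 5 counts of replicate 1: it was -9.63 points without that library and -11.2 points from counts summed over each group. With replicates 2 and 3 kept as separate samples it was 9.25 points (exact permutation p = 0.9). In parental exosomes the means were 27.1% ± 2.02 with cisplatin and 21.4% ± 6.24 without (SD, n = 3 each), a difference of 5.68 points (exact permutation p = 0.2). Without untreated parental replicate 3 the difference was 2.12 points. CSC-like exceeded parental exosomes by 24.6 points with cisplatin (exact permutation p = 0.4) and by 11.6 points untreated (exact permutation p = 0.5). The treated difference was -3.72 points without cisplatin-treated CSC-like replicate 1 and 15.2 points with replicates 2 and 3 kept separate, and the untreated one was 2.63 points without untreated CSC-like replicate 3.

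The proportion of members within a cluster varied among libraries, with few counts behind each value. On chromosome 19, miR-23a-3p as a share of miR-23a-3p plus miR-27a-3p ranged from 20% (1 of 5 counts) to 81.8% (18 of 22 counts; exact interval 59.7% to 94.8%). The highest came from untreated parental replicate 3. Intervals here cover counting error only, and differences between libraries were not tested. On chromosome 9, miR-23b-3p was at most 29.4% of miR-23b-3p plus miR-27b-3p and had no count in 3 libraries.

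**Figure D3:**
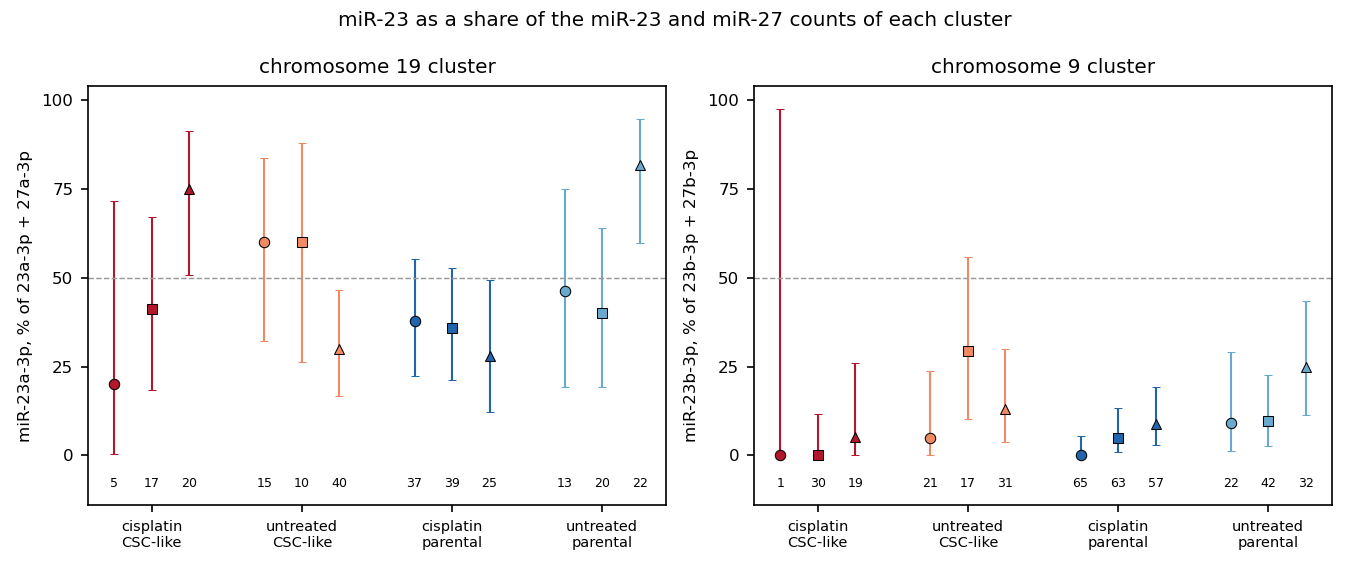
miR-23 3p form as a percent of the miR-23 plus miR-27 3p counts of the chromosome 19 cluster (left) and the chromosome 9 cluster (right), per library, with exact 95% binomial intervals and the counts along the foot. The chromosome 19 values run from 20% to 81.8%, whereas no chromosome 9 value exceeds 29.4%.

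Across all listed counts, the members found only on chromosome 19 summed to 1.14% ± 0.0361 (SD, n = 2) in cisplatin-treated CSC-like, 1.06% ± 0.517 in untreated CSC-like, 0.770% ± 0.286 in cisplatin-treated parental and 0.574% ± 0.195 in untreated parental exosomes (SD, n = 3 each). Those found only on chromosome 9 summed to 0.818% ± 0.827 (SD, n = 2) in cisplatin-treated CSC-like, 1.13% ± 0.309 in untreated CSC-like, 1.40% ± 0.398 in cisplatin-treated parental and 1.00% ± 0.513 in untreated parental exosomes (SD, n = 3 each). The ranges of treated and untreated libraries overlapped in both populations for each of these sums. The SD of 0.0361 for chromosome 19 in cisplatin-treated CSC-like exosomes is not a measure of precision. It follows the averaging of replicates 2 and 3 (0.959% and 1.27%). Replicate 1 had 5 of 429 counts, 1.17%, with an exact interval of 0.379% to 2.70%. All 6 members together averaged 2.37% ± 1.05 (SD, n = 2) in treated and 2.60% ± 1.06 in untreated CSC-like exosomes, and 2.45% ± 0.833 in treated and 1.75% ± 0.771 in untreated parental exosomes (SD, n = 3 each).

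The first question of the design was whether exosome contents differ after cisplatin. In parental exosomes 3 members had enough counts to be tested, and 0 of 3 passed an adjusted p of 0.05 in edgeR's quasi-likelihood test, beside 5.41% of the 37 miRNAs tested. At an unadjusted p under 0.05 there were 0 of 3, beside 6 of all 37. No tested member was free of overlap between the groups, beside 16.2% of those tested. The log2 fold change was 0.70 for miR-27a-3p (SE 0.63, 95% interval -0.59 to 1.99, adjusted p = 0.630), 0.31 for miR-27b-3p (SE 0.86, interval -1.47 to 2.09, adjusted p = 0.843) and -0.50 for miR-23a-3p (SE 0.56, interval -1.66 to 0.65, adjusted p = 0.776). The miR-27a-3p value was 1.40 without untreated parental replicate 2 and 0.15 without untreated parental replicate 3. The miR-27b-3p value was -0.20 without untreated parental replicate 1 and -0.087 without untreated parental replicate 3. The authors' deposited table gives miR-27a-3p a fold of 1.92 with p = 0.0417, which became 0.408 after adjustment over its 137 miRNAs.

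In CSC-like exosomes 4 members were tested and 0 of 4 passed the adjusted threshold, beside 3.45% of 29 miRNAs. At an unadjusted p under 0.05 there were 0 of 4, beside 2 of all 29. Their log2 fold changes with cisplatin were 0.25 (SE 0.97) for miR-24-3p, 0.21 (SE 0.96) for miR-23a-3p, 0.05 (SE 1.00) for miR-27a-3p and 0.01 (SE 0.78) for miR-27b-3p, each with an adjusted p of 0.990. The intervals were wide: that of miR-27b-3p ran from -1.54 to 1.56, so changes of this size in either direction are within the error. The values of miR-27a-3p and miR-27b-3p lay so near 0 that they changed sign under other settings, miR-27b-3p also when library totals replaced TMM scaling (-0.034).

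**Figure D4:**
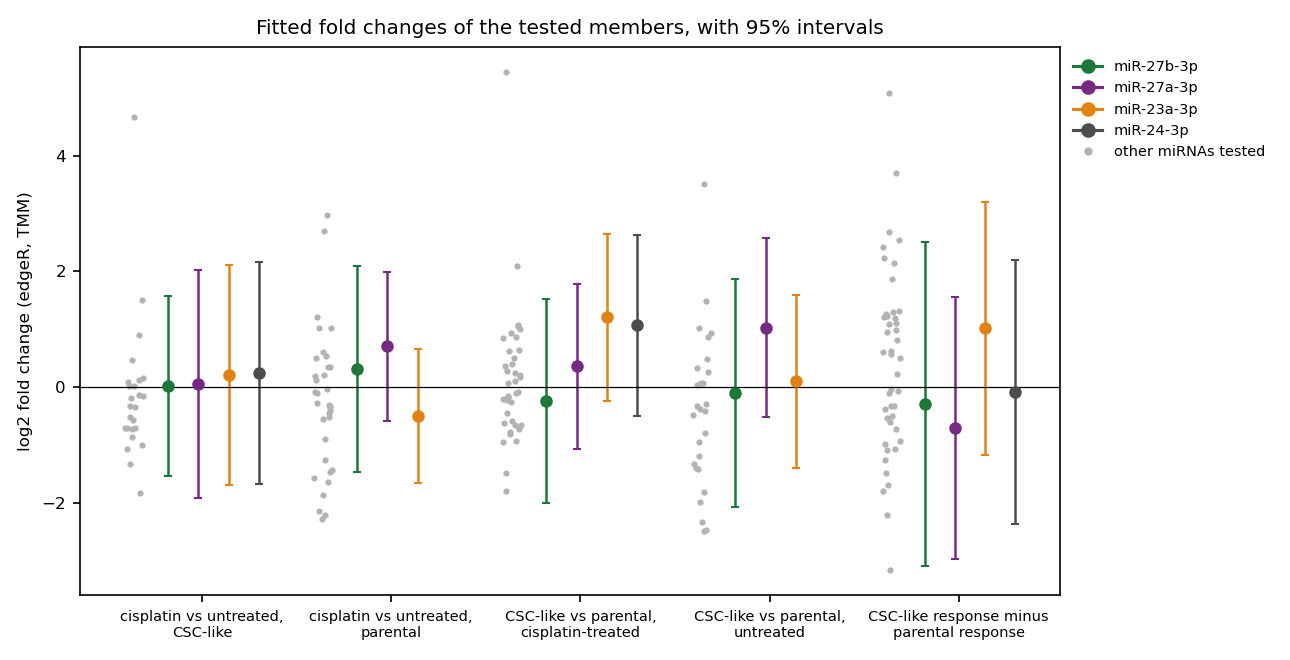
Fitted log2 fold changes (edgeR with TMM scaling, y axis) of the tested members with 95% intervals, in 4 comparisons and in the difference between the responses of CSC-like and parental exosomes. Grey points are the other miRNAs tested. Every member's interval spans 0.

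The second question was how CSC-like and parental exosomes differ, among the 98 miRNAs listed for both. With cisplatin, 4 members were tested and 0 of 4 passed the adjusted threshold, beside 2.38% of 42 miRNAs. The unadjusted count was 0 of 4, beside 2 of all 42, and 23.8% of all tested and no member lacked overlap. miR-23a-3p was at 1.21 (SE 0.68, interval -0.24 to 2.65, adjusted p = 0.742) and miR-24-3p at 1.06 (SE 0.74, adjusted p = 0.742). Without cisplatin-treated CSC-like replicate 3 the miR-23a-3p value was 0.39. miR-27a-3p was at 0.36 (SE 0.67) and miR-27b-3p at -0.25 (SE 0.83), both with an adjusted p of 0.900.

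Untreated, 3 members were tested and 0 of 3 passed the adjusted threshold, beside 3.33% of 30 miRNAs. The unadjusted count was 0 of 3, beside 5 of all 30, and no member was among the 13.3% without overlap. The log2 fold change of miR-27a-3p was 1.03 (edgeR SE 0.78, adjusted p = 0.515). Untreated CSC-like replicate 3 held 28 of the 38 miR-27a-3p counts of its group, and without it the value was -0.82. miR-27b-3p was at -0.10 (SE 0.99) and miR-23a-3p at 0.10 (SE 0.75), both with an adjusted p of 0.977. The miR-27b-3p value became 0.17 when library totals replaced TMM.

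The response to cisplatin in CSC-like exosomes minus that in parental exosomes was tested directly for 4 members. The adjusted threshold was passed by 0 of 4, beside 2.08% of 48 miRNAs, and an unadjusted p under 0.05 by 0 of 4, beside 5 of all 48. The differences in log2 fold change were 1.01 for miR-23a-3p (SE 1.11, adjusted p = 0.871), -0.71 for miR-27a-3p (SE 1.15, adjusted p = 0.884), -0.29 for miR-27b-3p (SE 1.43, adjusted p = 0.944) and -0.09 for miR-24-3p (SE 1.16, adjusted p = 0.972). The SEs exceeded each of them.

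Set beside all miRNAs tested, the members' median log2 fold change was 0.13 against -0.15 with cisplatin in CSC-like exosomes, 0.31 against -0.27 with cisplatin in parental exosomes, 0.71 against 0.08 between treated populations, 0.10 against -0.32 between untreated populations, and -0.19 against 0.36 for the difference in response. TMM and library totals placed the centre of all miRNAs differently: with totals the medians over all tested were -0.17, 0.01, -0.05, 0.14 and -0.28 in the same order. The members' medians above are from TMM and are not to be set against these, since the members' values moved with the scaling too. With cisplatin in parental exosomes, totals gave 1.02 for miR-27a-3p, 0.62 for miR-27b-3p and -0.25 for miR-23a-3p.

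A list of 13 miRNAs linked to blood vessel growth, of which 7 were listed for CSC-like and 8 for parental exosomes, was examined beside the members. With cisplatin 0 of 3 tested passed in either population, between treated populations 0 of 3, between untreated populations 0 of 2, and for the difference in response 0 of 4. Of all miRNAs tested, 3.45% passed with cisplatin in CSC-like and 5.41% in parental exosomes. Between treated populations 2.38% passed, between untreated populations 3.33%, and for the difference in response 2.08%. At such shares a count of 0 among so few is not a result about the list. Of these, miR-221-3p had log2 fold changes with cisplatin of 1.5 in CSC-like (adjusted p = 0.613) and -0.55 in parental exosomes (adjusted p = 0.843), miR-378a-3p of 0.015 in CSC-like (adjusted p = 0.990) and 1.22 in parental exosomes (adjusted p = 0.324), and miR-92a-3p of 0.16 in CSC-like (adjusted p = 0.990) and -0.44 in parental exosomes (adjusted p = 0.843).

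The miRNAs most like each miR-27 paralog were sought by the root mean square difference of centred log2 levels over 11 samples, among 31 other miRNAs, as a description of libraries that share their depth and totals. For miR-27a-3p they were miR-21-5p (0.66), miR-146a-5p (0.98) and miR-26a-5p (0.99), with a median over the 31 of 1.47. For miR-27b-3p they were miR-148a-3p (0.58), miR-30a-5p (0.67) and miR-26a-5p (0.68), with a median of 1.26. The paralogs were at 1.13 from each other, so that miR-27b-3p ranked 6 among the 31 nearest to miR-27a-3p, and miR-27a-3p ranked 10 for miR-27b-3p. Counting error enters these distances and weighs most on miRNAs with few counts. In cisplatin-treated CSC-like replicate 1 miR-27a-3p had 4 counts and miR-27b-3p 1. The ranks therefore do not show that the paralogs follow different patterns, which was not tested. miR-21-5p, the most abundant of the nearest miRNAs named, averaged 30.7% ± 9.12 (SD, n = 2) in treated and 29.5% ± 8.06 (SD, n = 3) in untreated CSC-like exosomes. In parental exosomes it averaged 31.9% ± 2.92 treated and 12.5% ± 8.38 untreated (SD, n = 3 each).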

How the data were processed

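Small RNA from exosomes was sequenced in 12 samples. Per the labels' protocols, RNA was extracted with ExoRNeasy and libraries were made with a NEB-Next small RNA kit. The tools cutadapt and FastQC are named, without versions, by the submitters' processing notes; an aligner, its mismatches, a genome build and a miRNA release are not given in those sources. For each cell population the authors deposited a table of raw read counts by mature miRNA and replicate, without normalization per the file headers. The deposited tables also hold the authors' signed fold as a score, and an unadjusted p-value. Only miRNAs with 1 count or more in both groups of a table are listed, which hides any complete loss or gain. From each file 1 line is not used here.

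Shares are percentages of each library's summed listed counts. Cisplatin-treated CSC-like replicates 2 and 3 were summed for edgeR, and their shares were averaged for group means and permutation tests. The test was run in edgeR 4.0.16 (with limma 3.58.1 under R 4.3.3). Cisplatin comparisons within a population started from all miRNAs listed for it. Comparisons between populations, the difference in response and the 4-group fits started from the 98 miRNAs listed for both populations. The steps were filterByExpr (minimum count 10, minimum total 15), TMM, a quasi-likelihood test, and p-values adjusted by Benjamini-Hochberg in each comparison, with a threshold of 0.05. Each pairwise comparison was fitted on its own groups and the difference in response on all 4. An SE given for edgeR was not fitted directly. It is the absolute log2 fold change divided by the square root of the F statistic of the quasi-likelihood test. The 95% intervals of the fold changes were built from that SE with the t distribution. Clopper-Pearson 95% intervals came from scipy 1.17.1 and cover counting error only; PCR reads without molecular identifiers are not independent molecules. Exact permutation tests were two-sided and enumerated all regroupings. Patterns were compared on log2(CPM of listed counts + 100) for miRNAs with a mean of at least 10 counts. Alternatives were library totals, DESeq2 1.42.0 size factors and Wald test, no filter, a filter of 15 counts, 4-group fits, separate replicates, a replicate block, and leaving out each library. Only the edgeR fits, with all libraries kept separate, were tested on simulated data.

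The members and lists were chosen with earlier results of these data known. The named miRNAs are all members, the 3 nearest to each miR-27 paralog, and the 3 of the blood vessel list with most counts. Marker lists for blood, epithelium and endothelium had no miRNA tested between the groups. Those of mesenchymal basal breast lines had 3 tested in each pairwise comparison and 4 for the difference in response. They had 0 called, beside 2.08% to 5.41% of all miRNAs tested in these comparisons. They held 24.5% ± 2.89 (SD, n = 2) and 24.7% ± 3.78 of counts in treated and untreated CSC-like exosomes. In treated and untreated parental exosomes they held 22.9% ± 0.484 and 44.3% ± 11.6 (SD, n = 3 each). Most of these counts were miR-100-5p, with 1740 in CSC-like and 6794 in parental exosomes.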

Additional observations from a re-analysis of the deposited data

How the results depend on the processing

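The number of members called was 0 under each of 73 alternatives, DESeq2's Wald test included. Calls over all miRNAs tested were few too, and differed between alternatives. With cisplatin in parental exosomes they ran from 0 of 137 with no filter to 8 of 43 without untreated parental replicate 2. A count of 0 among so few members is therefore not a result about the members. Of 253 refitted fold changes, 219 kept their direction and 34 changed sign, none of them called. Of the changes that did not come from leaving out a library, with cisplatin in CSC-like exosomes miR-27a-3p gave -0.082 with no filter, -0.076 with a filter of 15 counts and -0.061 in the 4-group fit, and miR-27b-3p gave -0.034 with library totals, -0.012 with 15 counts and -0.066 in the 4-group fit. Between untreated populations miR-27b-3p gave 0.17 with totals and 0.12 with no filter, and miR-23a-3p -0.086 in the 4-group fit. For the difference in response miR-24-3p gave 0.059 with DESeq2 size factors and 0.056 with its Wald test.

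Leaving out each library in turn gave ranges that include both signs for 12 of 18 fitted fold changes. With cisplatin these were -0.27 to 0.51 for miR-27a-3p and -0.017 to 0.92 for miR-27b-3p in CSC-like exosomes, and -0.20 to 0.85 for miR-27b-3p in parental exosomes. Between treated populations they were -0.019 to 0.59 for miR-27a-3p and -0.56 to 0.34 for miR-27b-3p. Between untreated populations they were -0.82 to 1.52 for miR-27a-3p, -0.97 to 0.67 for miR-27b-3p and -0.45 to 0.51 for miR-23a-3p. For the difference in response they were -1.34 to 0.57 for miR-27a-3p, -0.78 to 0.20 for miR-27b-3p, -0.013 to 1.51 for miR-23a-3p and -0.56 to 0.93 for miR-24-3p. The other 6 kept their sign where they could be fitted: with cisplatin 0.21 to 0.93 for miR-23a-3p and 0.039 to 0.90 for miR-24-3p in CSC-like, 0.15 to 1.40 for miR-27a-3p and -1.04 to -0.30 for miR-23a-3p in parental exosomes, and between treated populations 0.39 to 1.58 for miR-23a-3p and 0.56 to 1.44 for miR-24-3p. The miR-27a-3p share of the miR-27 pair differed by -9.63 to 27.6 points with cisplatin in CSC-like exosomes (-11.2 from summed counts), by 2.12 to 7.94 points with cisplatin in parental exosomes, by -3.72 to 25.8 points between treated and by 2.63 to 16.6 points between untreated populations. The cause was not tested.

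With miR-21-5p and miR-100-5p left out of the total, the members held 4.78% and 5.01% of treated and untreated CSC-like and 4.89% and 3.52% of treated and untreated parental counts, since the denominator shrinks. To see whether replicate numbers mark pairs, the levels of 32 miRNAs in each sample were taken as deviations from the group mean. Between groups, these deviations correlated at -0.41 to 0.45 for samples with the same replicate number. In 3 of 12 cases the best match among the 3 replicates of the other group had the same number. The numbers were therefore not taken as pairs. With the replicate block, fitted with all libraries kept separate, no member was called (0 in all 5 comparisons, with only 1 member tested for cisplatin in CSC-like exosomes). Over all miRNAs tested, the block called 0 of 22 with cisplatin in CSC-like and 2 of 37 in parental exosomes. It called 1 of 34 between treated populations, 1 of 30 between untreated populations and 0 of 40 for the difference in response. miR-27a-3p between treated populations was then -0.038, against 0.025 with separate libraries and no block. Depth limits miR-23b-3p (33 counts in all) and miR-27a-5p (7 counts) most.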
